A study of Mus musculus with 7 samples.

Results

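The immediate early genes are transcribed within minutes of a stimulus without new protein synthesis, and 10 of them were followed here in sorted mouse Paneth cells: Fos, Fosb, Jun, Junb, Jund, Egr1, Atf3, Ier2, Ier3 and Dusp1. They were chosen by name, as a known sign of stress during cell isolation, and with earlier results of these data known. Each had 1 transcript cluster, the gene-level probe set of the array, and they are 10 of 19938 genes measured. All 10 passed the filter on low values, a mean at or above the 40th percentile of all transcript clusters (6.79), which 13409 genes passed.

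Paneth cells sit at the bottom of the crypts of the small intestine and secrete antimicrobial proteins. Gene expression was measured on 4 arrays from mice on a calorie restricted diet (60% of ad libitum calories) and on 3 arrays from mice on an ad libitum diet, 1 array per biological replicate. The mice were 4 months old, the diets lasted 4 to 7 weeks, and Paneth cells were isolated by flow cytometry. The sources used here give neither strain nor sex, nor whether animals were pooled. All 7 samples went through cell isolation, so transcripts induced during isolation and transcripts already present in the intestine cannot be told apart. The deposited values are log2 expression levels, with array medians of 7.24 to 7.44. Fewer cells of a type and less RNA per cell cannot be told apart in such bulk samples.

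Fos and Fosb pair with Jun, Junb or Jund to form AP-1, a dimeric transcription factor of the basic leucine zipper class. Their promoters are switched on by MAP kinases, serum response factor and the cAMP response element binding protein CREB. Egr1 is a zinc finger transcription factor induced by the same routes, and Atf3 is a stress-induced relative of the AP-1 subunits. Dusp1 is a phosphatase that inactivates MAP kinases, and thereby closes a feedback loop. Ier2 encodes a small nuclear protein and Ier3 a regulator of cell survival. In gut and other tissues, enzymatic or mechanical dissociation is known to raise several of these transcripts.

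The promoter sequences of 8 of these genes were at hand from RefSeq (GRCm38.p6), as 300 bases that end 50 bases after each annotated start. Egr1 and Ier2 had none. The core of the CREB site, TGACG, was searched on both strands, overlaps included. It was found in 5 of these 8 promoters (Fos, Fosb, Junb, Atf3 and Dusp1), against 20.8% of all 32851 promoters. The full palindrome TGACGTCA was found in Dusp1 alone of the 8, and in 1.79% of all promoters. TGANTCA, the AP-1 site, and the CArG box of serum response factor were found in 0 of the 8 windows, against 7.81% and 1.63% of all promoters. At these shares 0 of 8 is not a result about these genes, and sequence outside the windows was not searched. TATAAA was found in Fos and Junb and in 13.6% of all promoters. These matches describe letters in a window and are neither binding sites nor causes. Fos and Atf3 are shown over the 250 bases before the start, since their levels did not overlap between the diets. Fosb and Junb are shown over 30 bases around their match, and Dusp1 over 30 bases around its palindrome. The promoter start used for Fosb lies inside the annotated span of the gene (chr7:19302696-19310118). The Fosb bases shown therefore lie within that span. A further TGACG in Dusp1, which began 191 bases before the start, is not shown. Capitals mark TGACG, its reverse complement CGTCA and, in Fos, TATAAA.
Fos (chr12:85473640-85473889, plus strand): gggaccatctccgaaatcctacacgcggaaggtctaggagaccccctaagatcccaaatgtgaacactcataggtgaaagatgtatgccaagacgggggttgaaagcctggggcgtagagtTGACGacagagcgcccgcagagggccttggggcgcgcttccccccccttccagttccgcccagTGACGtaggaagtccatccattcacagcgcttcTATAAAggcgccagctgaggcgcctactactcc
Atf3 (chr1:191183334-191183583, minus strand): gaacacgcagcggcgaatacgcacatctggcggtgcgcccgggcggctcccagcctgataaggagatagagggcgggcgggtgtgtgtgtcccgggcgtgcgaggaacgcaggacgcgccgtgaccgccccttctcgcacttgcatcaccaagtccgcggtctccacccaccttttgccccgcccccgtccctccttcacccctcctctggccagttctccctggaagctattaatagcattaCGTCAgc
Fosb (chr7:19310089-19310118, minus strand): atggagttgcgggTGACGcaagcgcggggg
Junb (chr8:84978838-84978867, minus strand): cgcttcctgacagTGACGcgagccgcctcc
Dusp1 (chr17:26508597-26508626, minus strand): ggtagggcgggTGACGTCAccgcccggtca
In Fos the nearer TGACG began 66 bases before the start, and TATAAA began 33 bases before it. The TATAAA of Junb began at the start itself and not before it, outside the bases shown. In Atf3 the reverse complement lay 7 to 3 bases before the start.

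None of the 10 genes passed the test between the diets. limma, adjusted over all genes tested, called 0 of the 10 in either direction at an adjusted p below 0.05, where 0.656% of all genes tested were called higher and 0.00746% lower. At an unadjusted p below 0.05 there were 3 of 10, all in the higher direction, against 6.89% of all genes tested in that direction, 2.41% in the lower one and 9.3% in either. These 3, Egr1, Fos and Atf3, were also the members whose diets did not overlap, with every calorie restricted array above every ad libitum array. Over all genes tested, 7.14% had such groups in this direction and 10.2% in either. Of the 10 differences, calorie restricted minus ad libitum, 8 were positive, against 54.2% of all genes. Their median was 0.17 log2 units and that of all genes tested 0.01.

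**Figure D1:**
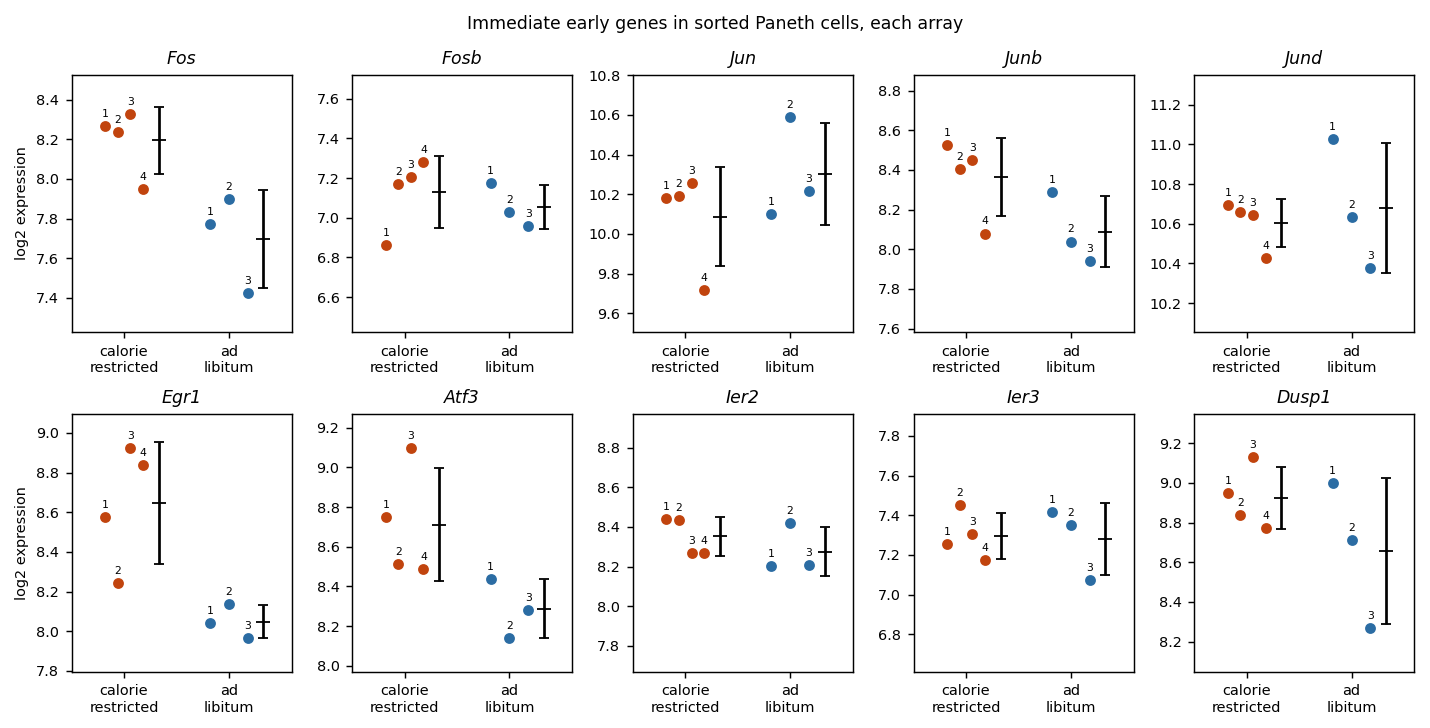
Log2 expression (vertical axis, the same span of log2 units in each panel) of the 10 immediate early genes on each array. Points are arrays, numbered by replicate, with calorie restricted arrays at the left and ad libitum arrays at the right, and bars give the mean and SD. The groups do not overlap for Fos, Egr1 and Atf3, and overlap for the other 7 genes.

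Among the AP-1 subunits, Fos was at 8.27, 8.24, 8.33 and 7.95 in the 4 calorie restricted replicates, against 7.77, 7.90 and 7.42 in the 3 ad libitum replicates, each in order of replicate number. The groups were separated by 0.05 log2 units, between calorie restricted replicate 4 and ad libitum replicate 2. Fos averaged 8.20 ± 0.17 in calorie restricted cells (SD, n = 4) and 7.70 ± 0.25 in ad libitum cells (SD, n = 3). The difference of 0.50 ± 0.14 (SE), 1.41-fold, did not pass the test (limma, adjusted p = 0.254). Its 95% interval, not adjusted for the number of genes, ran from 0.17 to 0.82. With limma's array weights, which give less weight to arrays that deviate more, the difference was 0.46 (adjusted p = 0.0430), in a fit that called 7.18% of all genes higher.

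Fosb, the close relative of Fos, had overlapping groups. It was at 6.86, 7.17, 7.20 and 7.28 in the calorie restricted replicates, against 7.17, 7.03 and 6.96 in the ad libitum replicates. The lowest and the highest of the 7 values were both from calorie restricted mice. The difference was 0.08 ± 0.11 with a 95% interval from -0.18 to 0.34 (limma, adjusted p = 0.894). The lowest Fosb values lay close to the filter level of 6.79, and no detection call was used, so signal above background was not shown for them.

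The Jun subunits did not share one direction. Junb was at 8.52, 8.40, 8.45 and 8.08 in the calorie restricted replicates, against 8.29, 8.04 and 7.94 in the ad libitum replicates. Calorie restricted replicate 4 lay within the ad libitum range and the other 3 lay above it. The difference of 0.28 ± 0.14 did not pass (limma, adjusted p = 0.621), except with array weights, where it was 0.39 (adjusted p = 0.0338). Jun was at 10.18, 10.19, 10.26 and 9.71 in the calorie restricted replicates, against 10.10, 10.59 and 10.22 in the ad libitum replicates. Its highest value was in ad libitum replicate 2 and its lowest in calorie restricted replicate 4. The difference was -0.22 ± 0.17 (limma, adjusted p = 0.797), with a 95% interval from -0.60 to 0.16. Jund, often described as the constitutive Jun subunit, was at 10.70, 10.66, 10.65 and 10.43 in the calorie restricted replicates, against 11.03, 10.63 and 10.38 in the ad libitum replicates. The ad libitum arrays spanned the whole range of the calorie restricted ones. Jund differed by -0.07 ± 0.15 (limma, adjusted p = 0.928), and by 0.10 without ad libitum replicate 1, its highest array.

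Egr1 had the largest difference of the 10. It was at 8.57, 8.24, 8.92 and 8.84 in the calorie restricted replicates, against 8.04, 8.14 and 7.97 in the ad libitum replicates. The ad libitum arrays were close together, while the calorie restricted arrays spread more widely, with replicates 3 and 4 the highest. Egr1 averaged 8.65 ± 0.31 in calorie restricted cells (SD, n = 4) and 8.05 ± 0.08 in ad libitum cells (SD, n = 3). The difference of 0.60 ± 0.16, 1.51-fold, did not pass (limma, adjusted p = 0.231), and its 95% interval ran from 0.22 to 0.97. It was larger than 97.8% of the differences over all genes tested.

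Atf3 was at 8.75, 8.51, 9.10 and 8.49 in the calorie restricted replicates, against 8.44, 8.14 and 8.28 in the ad libitum replicates. Calorie restricted replicate 3 was the highest, and replicates 2 and 4 lay just above ad libitum replicate 1, 0.05 log2 units apart at the closest. Atf3 averaged 8.71 ± 0.28 in calorie restricted cells (SD, n = 4) and 8.29 ± 0.15 in ad libitum cells (SD, n = 3). The difference of 0.42 ± 0.16, 1.34-fold, did not pass (limma, adjusted p = 0.452). Its 95% interval was 0.05 to 0.80.

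The phosphatase gene Dusp1 was at 8.95, 8.84, 9.13 and 8.77 in the calorie restricted replicates, against 8.998, 8.71 and 8.27 in the ad libitum replicates. Ad libitum replicate 1 was the second highest of the 7 arrays and ad libitum replicate 3 the lowest. The difference of 0.26 ± 0.17 (limma, adjusted p = 0.745) was 0.07 without ad libitum replicate 3 and 0.43 without ad libitum replicate 1.

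Ier2 and Ier3 did not separate by diet. Ier2 was at 8.44, 8.44, 8.27 and 8.27 in the calorie restricted replicates, against 8.20, 8.42 and 8.21 in the ad libitum replicates. Its difference of 0.08 ± 0.10 had a 95% interval from -0.15 to 0.31 (limma, adjusted p = 0.874). Ier3 was at 7.26, 7.45, 7.30 and 7.17 in the calorie restricted replicates, against 7.42, 7.35 and 7.07 in the ad libitum replicates. Its difference of 0.02 ± 0.11 had a 95% interval from -0.23 to 0.27 (limma, adjusted p = 0.981). Both genes had overlapping groups with means closer than the spread between replicates. The Ier3 values lay around the array medians of 7.24 to 7.44, and signal above background was not shown for them.

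The arrays themselves fell into sets that crossed the diets. Calorie restricted replicates 1, 2 and 3 and ad libitum replicate 1 had array medians of 7.24 to 7.29, and calorie restricted replicate 4 and ad libitum replicates 2 and 3 had medians of 7.42 to 7.44. Across genes, calorie restricted replicate 4 correlated best with ad libitum replicate 3 (r = 0.994) and ad libitum replicate 1 with calorie restricted replicate 3 (r = 0.992). The other 5 arrays each correlated best with an array of their own diet. The labels name no batch that matches these sets. Each set holds 1 array of one of the diets, so its differences have no test of their own.

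Within the sets, Egr1, Fos, Atf3 and Junb were higher in calorie restricted cells in both. Egr1 differed by 0.54 among the arrays with lower medians and by 0.79 among those with higher medians. Fos differed by 0.51 and 0.29, Atf3 by 0.35 and 0.28, and Junb by 0.17 and 0.09, in the same order of sets. Jund and Ier3 were lower in both sets, with differences of -0.36 and -0.08 for Jund and of -0.08 and -0.04 for Ier3. The remaining 4 genes had opposite signs in the sets. Jun was at 0.11 among the arrays with lower medians and -0.69 among those with higher medians, and Ier2 at 0.18 and -0.05. Fosb was at -0.09 and 0.29, and Dusp1 at -0.03 and 0.28. With the set as a block, added after seeing the data, limma called 0 of the 10, while 3.85% of all genes tested were called. Egr1 had a difference of 0.66 ± 0.17 in that fit (adjusted p = 0.0660), Fos 0.40 ± 0.13 (adjusted p = 0.122) and Atf3 0.31 ± 0.15 (adjusted p = 0.262).

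**Figure D2:**
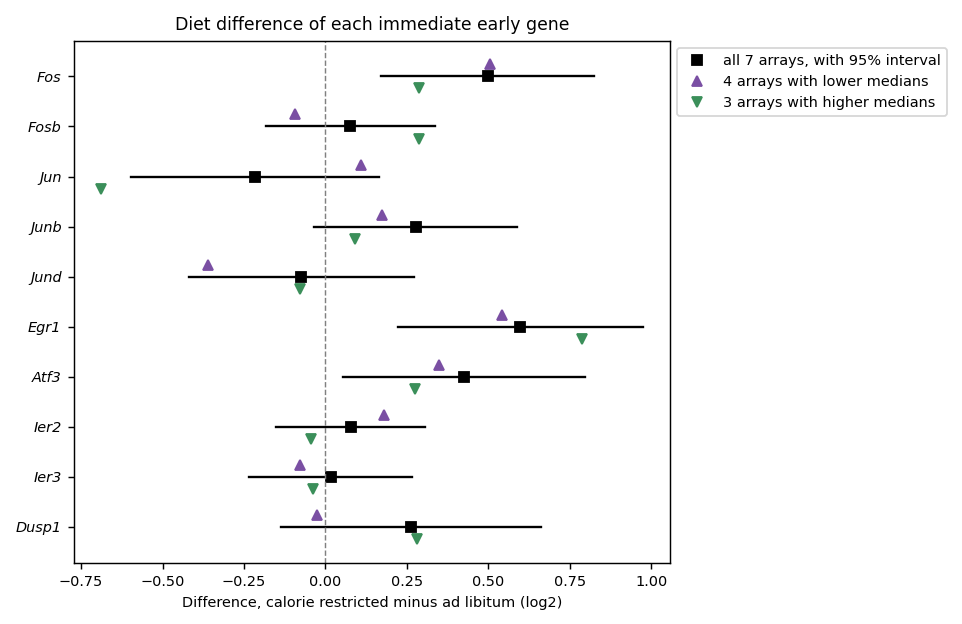
Difference of each gene between diets (horizontal axis, log2 units, calorie restricted minus ad libitum). Squares are limma estimates over all 7 arrays with their 95% intervals, and triangles are differences of means within the 4 arrays with lower and the 3 arrays with higher array medians. The intervals of Fos, Egr1 and Atf3 lie above 0 before adjustment over all genes, and Jun, Fosb, Ier2 and Dusp1 have triangles on both sides of 0.

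Several of the genes were high or low on the same arrays. Calorie restricted replicate 3 was the highest of the 7 arrays for 4 genes, Fos, Egr1, Atf3 and Dusp1. Ad libitum replicate 3 was the lowest for 6, Fos, Junb, Jund, Egr1, Ier3 and Dusp1. Within its diet, calorie restricted replicate 4 was the lowest for 8 of the 10, with Egr1 and Fosb as the exceptions. The mean deviation of the 10 genes from their own means was 0.10, 0.07, 0.21 and -0.05 on the 4 calorie restricted arrays, and -0.0027, -0.05 and -0.28 on the 3 ad libitum arrays. Without ad libitum replicate 3 the median difference of the 10 was 0.05 in place of 0.17. By their median, the genes varied more between replicates of a diet than most genes, though Ier2 and Ier3 did not. The median of their standard deviations within a diet was 0.22 log2 units, against 0.15 over all genes tested, and the median range over the 7 arrays was 0.76 against 0.43.

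**Figure D3:**
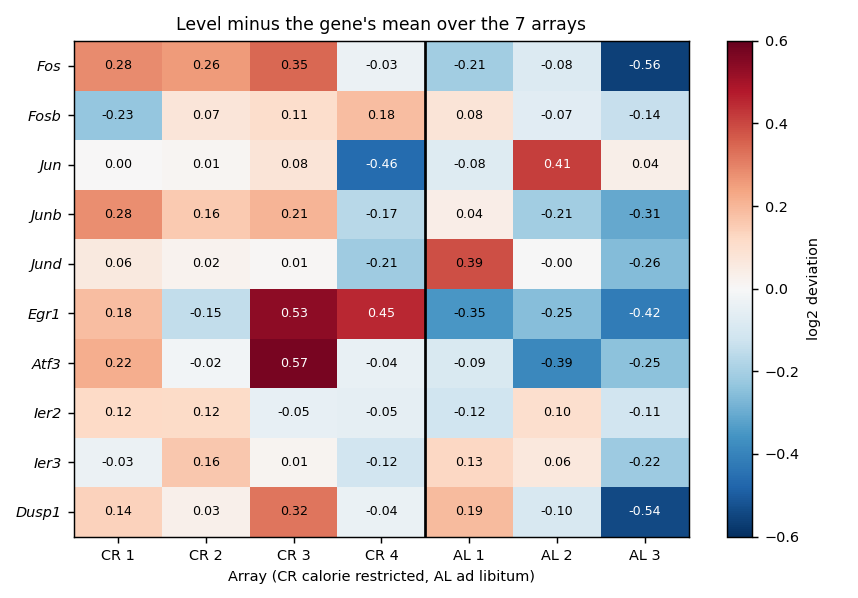
Level of each immediate early gene on each array as the deviation from the mean of that gene over the 7 arrays (colour and printed value, log2 units). Calorie restricted arrays (CR) stand left of the line and ad libitum arrays (AL) right of it. The column of ad libitum replicate 3 holds the lowest value of 6 genes, and that of calorie restricted replicate 3 the highest value of 4.

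The genes outside the 10 with the most similar profile over the 7 arrays were Epb41l5, Disp1, Casz1, Ptpn21, Shld1 and Sidt2. Likeness was the root mean square difference between the profile of a gene and the mean profile of the 10, each gene taken relative to its own mean. It was 0.04 log2 units for Epb41l5, an adaptor of the cell cortex, and 0.05 for Sidt2, a lysosomal membrane protein. The closest of the 10 members, Junb, was at 0.11, and 807 of 13409 genes tested, Junb included, were at or below that value. A mean over 10 genes evens out their variation, and the measure was not scaled to the variation of each gene. Genes that vary less than the members can therefore lie closer to it, so the count does not show how alike the members are.

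Of 46 other immediate early genes tested, 33 had a positive difference and 13 a negative one. In this list limma called 0, where 0.656% of all genes tested were called higher. Of the 46, 8 had an unadjusted p below 0.05, all higher, against 6.89% of all genes tested. The median difference of the 46 was 0.08. Groups did not overlap for 7, all higher in calorie restricted cells, against 7.14% of all genes tested. Errfi1, a feedback inhibitor of the EGF receptor, was at 10.70 ± 0.06 in calorie restricted cells (SD, n = 4) and 10.28 ± 0.09 in ad libitum cells (SD, n = 3), and came closest to the threshold (limma, adjusted p = 0.0635). Errfi1 was listed among the glucocorticoid response genes as well. The small GTPase gene Rhob had the largest difference of the 46, 0.63 ± 0.20. Id2, an inhibitor of helix-loop-helix factors, differed by 0.38 ± 0.12, and Hbegf, an EGF receptor ligand, by 0.39 ± 0.12. Rhob, Id2 and Hbegf had adjusted p-values from 0.295 to 0.337.

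Among the regulators of these genes no list had a called member, where 0.656% of all genes tested were called higher and 0.00746% lower. At these shares 0 called in lists of this size is not a result about the regulators. Over all genes tested, 6.89% were higher and 2.41% lower at an unadjusted p below 0.05. Of 17 other MAP kinase phosphatases and ERK feedback genes, limma called 0 and 0 had an unadjusted p below 0.05, with a median difference of 0.05. Their smallest p-values belonged to the phosphatase genes Dusp10 (0.24 ± 0.12) and Dusp4 (0.19 ± 0.16) and to the Ras pathway inhibitors Spred1 (0.38 ± 0.21) and Spred2 (0.18 ± 0.10). Of 19 further AP-1 partners 0 were called and 2 had an unadjusted p below 0.05. The large Maf factor Maf was at 10.34 ± 0.26 in calorie restricted cells (SD, n = 4) and 9.49 ± 0.21 in ad libitum cells (SD, n = 3), a difference of 0.84 ± 0.16 (limma, adjusted p = 0.0677). Jdp2, a repressor that dimerises with Jun, differed by 0.40 ± 0.13. Of 23 upstream kinases and serum response factors 0 were called and 2 had an unadjusted p below 0.05, Mapk8 (0.27 ± 0.08), which encodes the Jun kinase JNK1, and Map2k3 (0.29 ± 0.09), which activates p38.

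Heat shock genes, another known mark of dissociation, were described beside them. Of 14 tested, limma called 0, where 0.656% of all genes tested were called higher and 0.00746% lower. At an unadjusted p below 0.05 there were 0, against 6.89% of all genes tested higher and 2.41% lower. The median difference of the 14 was 0.04. Hspa1a, an inducible chaperone of the HSP70 family, was at 6.88, 6.99, 7.24 and 7.25 in the calorie restricted replicates, against 7.08, 7.33 and 8.10 in the ad libitum replicates. Its highest value was in ad libitum replicate 3, the array in which 6 of the 10 immediate early genes were lowest. Not every member of the list shared this pattern, as Hspb1 had its lowest value, 7.10, on that same array. The mean of the heat shock list was 10.25 on that array, against 10.14 and 10.01 on ad libitum replicates 1 and 2. It was 10.09 to 10.27 over the calorie restricted arrays. The lowest Hspa1a values lay close to the filter level, and signal above background was not shown for them. The small heat shock gene Hspb8 differed by 0.72 ± 0.32 and Hspb1 by 0.33 ± 0.23, and neither passed (limma, adjusted p = 0.544 and 0.758). In the list of NF-kB feedback genes 0 of 16 were called, and the median was -0.06. At an unadjusted p below 0.05, 1 was higher and 2 were lower, against 6.89% and 2.41% of all genes tested. Nfkbiz, a nuclear regulator of NF-kB, was at 9.20 ± 0.19 in calorie restricted cells (SD, n = 4) and 9.64 ± 0.0042 in ad libitum cells (SD, n = 3), a difference of -0.44 ± 0.11 (limma, adjusted p = 0.201).

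**Figure D4:**
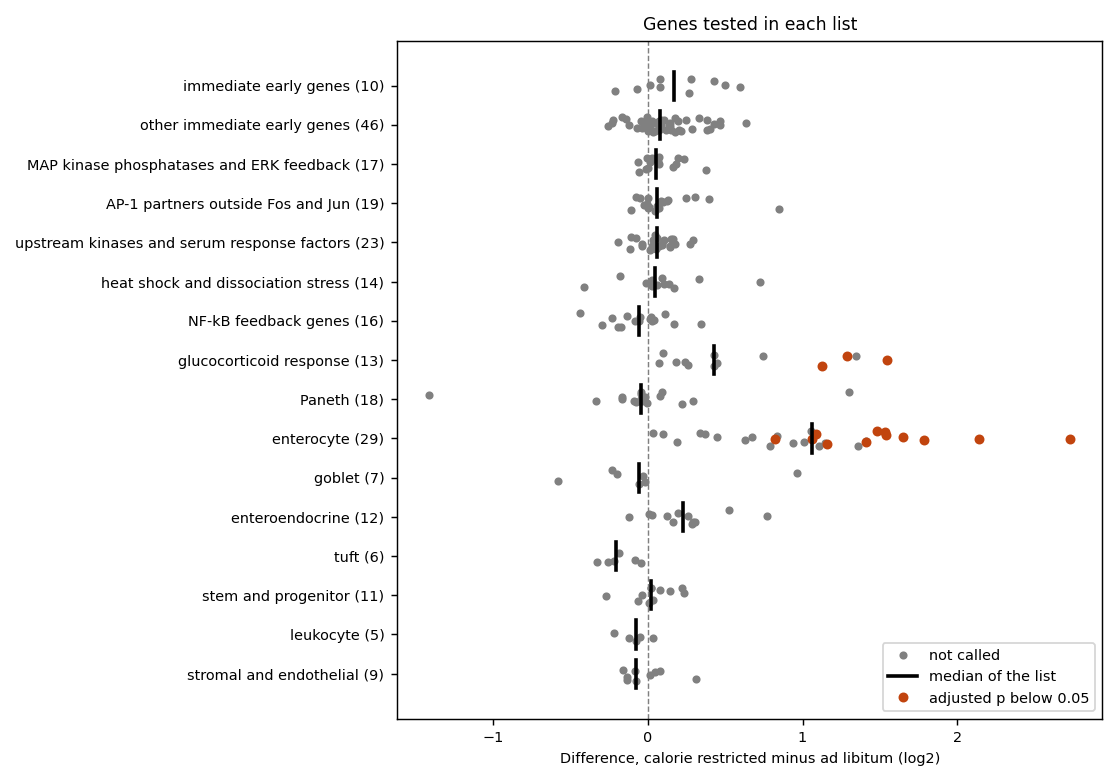
Difference between diets (horizontal axis, log2 units, calorie restricted minus ad libitum) of every gene tested in each list, with the number tested in parentheses. Grey points did not pass, coloured points had an adjusted p below 0.05 in limma, and bars are list medians. Called genes lie in the glucocorticoid response list (3) and the enterocyte list (12).

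Other lists held called genes, but the lists were chosen with earlier results of these data known. Their counts beside the share of all genes are therefore descriptions and not tests. Of 13 glucocorticoid response genes 3 were called higher, against 0.656% of all genes tested, with a median difference of 0.43. They were Fkbp5 (1.29 ± 0.15, adjusted p = 0.0127 in limma), a chaperone of the receptor complex, Sgk1 (1.55 ± 0.24, adjusted p = 0.0400), a kinase, and Zbtb16 (1.12 ± 0.09, adjusted p = 0.00799), a zinc finger factor. Without calorie restricted replicate 1 or ad libitum replicate 2, 1 was called. Dusp1 is a known target of the glucocorticoid receptor too, and its own difference did not pass. Markers of enterocytes, the absorptive cells, had 12 of 29 called higher and a median of 1.06. The count was 2 without calorie restricted replicate 1, 2 or 3, 6 without calorie restricted replicate 4 and 7 after quantile normalization. It was 0 with the replicate block, 19 with the array set as a block and 26 with array weights. These fits differ in the share of all genes called in either direction, which was 0.664% in the main fit. That share was 0.0895% to 0.447% without single calorie restricted arrays and 0.395% after quantile normalization. It was 3.85% with the array set as a block and 10.1% with array weights. Their mean level was 11.6 to 11.9 over the calorie restricted arrays and 10.3 to 10.9 over the ad libitum arrays, and all 29 markers with a cluster passed the filter. The part of enterocyte RNA in the levels of Fos, Egr1 and Atf3 was not tested. All 18 Paneth markers with a cluster passed the filter, with a mean of 11.9 to 12.1 over the calorie restricted arrays and 12.0 to 12.1 over the ad libitum arrays, and 0 were called. Markers of other epithelial cells were present too, so the markers do not show how pure the sorted cells were. Goblet markers averaged 13.3 to 13.5 over the calorie restricted arrays and over the ad libitum arrays. Stem and progenitor markers averaged 10.8 to 11.3 over the calorie restricted arrays and 10.5 to 11.3 over the ad libitum arrays. Enteroendocrine markers averaged 9.90 to 10.7 over the calorie restricted arrays and 9.93 to 10.5 over the ad libitum arrays, and tuft markers 8.67 to 10.1 and 9.24 to 9.93 in the same order. Means of different lists rest on different probes and are not compared with each other. Means of leukocyte markers were 6.56 to 6.64 over the calorie restricted arrays and 6.50 to 6.72 over the ad libitum arrays, with 5 of 18 markers above the filter. Stromal and endothelial markers were at 6.80 to 6.86 over the calorie restricted arrays and 6.79 to 6.96 over the ad libitum arrays, with 9 of 15 above it. The goblet (7 tested), enteroendocrine (12), tuft (6) and stem and progenitor (11) lists had 0 called, with medians of -0.06, 0.23, -0.20 and 0.02.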

How the data were processed

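RNA of 7 samples of sorted Paneth cells was measured on Affymetrix arrays. The deposited values are log2 expression per transcript cluster, which the authors computed in Expression Console from Affymetrix, per the submitters' processing notes. How it summarised and normalized the arrays, and its version, is not given in the sources used here. From the range (2.97 to 14.7) a log2 scale was inferred. No scaling was added. Of 35556 clusters, 21789 had 1 symbol in the platform annotation, 1621 had several and 12146 were unnamed here. The cluster with the highest mean was kept per gene, and genes below the 40th percentile of cluster means (6.79) were left out.

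The diets were compared over 13409 genes in limma 3.58.1 (R 4.3.3), with a variance trend on intensity and without covariates. After Benjamini-Hochberg adjustment over these genes, an adjusted p below 0.05 was a call. Intervals are 95% intervals of single genes. On simulated arrays of 13409 genes, 82% of genes changed by 1 log2 unit and 97% of those changed by 2 were recovered. Of 189 calls 10 were false. The noise was drawn independently for each gene, without array sets. Recovery of differences as small as those of the 10 members, at most 0.60, was not simulated. The members and lists were chosen with earlier results of these data known. From other lists the rule names called genes, or else up to 4 with the smallest p, and up to 3 with the highest mean (not printed here), and then the 6 genes closest in profile to the members. Enterocyte and other cell type lists are given by counts. The alternatives are in the closing section. The labels call the replicates biological. Promoters came from RefSeq.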

Additional observations from a re-analysis of the deposited data

Results flagged for a closer look

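Jun in the calorie restricted cells had 1 array far from the other 3. Replicate 4 was at 9.71 and the others at 10.18 to 10.26, so the gap took up 0.860 of the range, above Dixon's 95% critical value for 4 arrays. Hbegf had replicate 2 at 7.99 and the other 3 at 8.17 to 8.18, a ratio of 0.950. Of 54 such groups examined, 2 passed the critical value, where chance flags about 1 in 20. The ad libitum arrays, 3 in number, were not examined in this way.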

How the results depend on the processing

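Alternatives were quantile normalization, median centring, leaving out the filter, raising it to the 60th percentile, averaging the clusters of a gene, fitting without the trend, array weights, the replicate number as a block, the array median set as a block (added after seeing the data) and leaving out each array. The count of immediate early genes called higher was 0 in each of these except array weights, where it was 2 (Fos and Junb) with 1355 genes called over the table. The differences of Fos, Fosb, Jun, Junb, Egr1, Atf3, Ier2 and Dusp1 kept their sign in every alternative that tested them. Fos, Fosb and Ier3 were not tested with the 60th percentile filter. Jund was at 0.013 after median centring, 0.042 with array weights and between -0.22 and 0.10 when single arrays were left out. Ier3 was at -0.060 with the array set as a block and between -0.088 and 0.083 when single arrays were left out. Adjusted p ran from 0.0660 to 0.629 for Egr1, from 0.0430 to 0.563 for Fos and from 0.0550 to 0.960 for Atf3. Median centring moved the median of all genes to 0.10 and that of the 10 members to 0.26. Of genes in the 7 related lists, 3 were called higher and 0 lower. The counts were 19 and 1 with array weights, 8 and 1 with the array set as a block, 0 higher with the replicate block, and 1 to 3 higher without single arrays. Among all genes tested 89 were called, against 53 after quantile normalization, 516 with the array set as a block, 0 with the replicate block, and 12 to 105 without single arrays. The cause of these changes was not tested. Deviations from the group means correlated at -0.13, -0.27 and -0.55 between same-numbered arrays, which gave no sign of pairing by replicate number. They cannot exclude pairing, since deviations within a diet sum to 0 and the array sets crossed the diets. The replicate block gave the same differences as leaving out calorie restricted replicate 4, the only array with its number. No alternative separates isolation from diet, and the number of arrays and the unknown background limit precision.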
